A study of Homo sapiens with 4 samples.

Results

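Histone genes were followed in 4 poly(A) RNA libraries of H1299 cells, a widely used human cell line from a non-small-cell lung cancer, with no p53 of its own (p53-/- in the labels). In 2 libraries the cells expressed CASM34, which the series presents as a p53 mutant, and in the other 2 they expressed wild-type p53 (p53WT). The labels name no treatment, do not say how either form was introduced or whether the cells were a clone or a pool, and cells without any p53 were not analysed here. The title of the series names synonymous cancer mutations and the DNA damage response of p53, and the comparison asks how mRNA levels differ between the cells with each form. Members were taken by symbol: protein-coding genes whose names start with H1-, H2AC, H2BC, H3C, H4C, H2AZ, H3-3 or MACROH2A, together with H2AJ. The rule gave 81 of the 61852 genes in the tables, of which 70 were classed as replication-dependent and 11 as variant histone genes. The class, too, was set by symbol: H1-1 to H1-6 and all H2AC, H2BC, H3C and H4C genes counted as replication-dependent. H4C16, on chromosome 12, and H2BC12L, on chromosome 21, came in this way though they lie outside the main clusters.

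Histones package DNA into nucleosomes, in which pairs of H2A, H2B, H3 and H4 form the core and H1 binds the linker. Replication-dependent histone genes mostly lie in clusters and are transcribed mainly in S phase. They give short mRNAs that mostly end in a conserved stem-loop in place of a poly(A) tail. SLBP, the stem-loop binding protein, holds that end through processing, export and translation. Variant (replacement) histones are made through the cell cycle from ordinary, mostly intron-containing and polyadenylated mRNAs and are placed in chromatin by chaperones of their own. A poly(A) library therefore captures the variants as it does other mRNAs, and of the replication-dependent genes only the RNA that was polyadenylated or carried through the selection.

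The 3' element that sets the replication-dependent class apart is shown for 4 members of different families, since such mRNAs mostly end at it. The annotated transcripts used here run on past it, by 1128 bases in H2AC6, 39 in H2BC5, 769 in H3C10 and 1167 in H4C14. Where the counted RNA ended was not tested. The sequences are those of the mRNA strand in GENCODE 29 transcripts on GRCh38, written 5' to 3', and the capitals mark the 16 bases that match the searched pattern (GG, 2 bases of any kind, CTTTT, 1 base, AG, 2 bases, CC), whose first and last 6 bases can pair and whose middle forms the loop. They lie at chr6:26124662-26124691 (+) in H2AC6, chr6:26158580-26158609 (+) in H2BC5, chr6:27810509-27810538 (+) in H3C10 and chr1:149833025-149833054 (+) in H4C14.
H2AC6: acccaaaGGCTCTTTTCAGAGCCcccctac
H2BC5: tcccaaaGGCTCTTTTAAGAGCCacgcatg
H3C10: acccaaaGGCTCTTTTCAGAGCCacccaca
H4C14: tcccaaaGGCCCTTTTTAGGGCCgaccact
The H2A and H3 genes carried the same 16 bases, the H2B gene differed from them within the loop, and the H4 gene differed in stem and loop. On the mRNA strand the pattern occurred in a GENCODE 29 transcript of 30 of the 70 replication-dependent genes and of 0 of the 11 variant genes, against 80 of all 58676 genes (0.136%). A missing match says only that the annotated transcript does not hold these letters, since many of these models stop at the coding region.

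Replication-dependent histone mRNA was scarce in these libraries and stood about 20% higher in CASM34 cells, while no single member passed the test. Summed over all 70 genes, tested or not, it reached 194 and 208 CPM (counts scaled to a common library size with TMM factors) in the CASM34 libraries, against 166 and 168 CPM in the p53WT libraries. Both CASM34 libraries lay above both p53WT libraries, by 20.5% in the means (200.9 ± 9.86 against 166.7 ± 1.54 CPM, SD, n = 2 each), a log2 difference of 0.27. The 11 variant genes summed to 1936 and 1951 CPM in the CASM34 libraries, against 1918 and 1983 CPM in the p53WT libraries, and the groups overlapped. That overlap depended on scale and on H1-10: per length the variant sum was 3297 and 3275 TPM in CASM34 cells, against 3178 and 3273 TPM in p53WT cells, and without H1-10 it was 1684 and 1709 CPM in CASM34 cells, against 1724 and 1772 CPM in p53WT cells. Replication-dependent genes thus made up 9.10% and 9.63% of the CPM of these 81 histone genes in CASM34 cells, against 7.95% and 7.80% in p53WT cells. Histone genes outside the rule, such as H2AX, are not in that total. In bulk RNA, more cells in the phase that makes these mRNAs and more of these mRNAs per cell cannot be told apart. No p-value is given for a sum, and with 2 libraries against 2 no exact test can fall under 0.05.

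**Figure D1:**
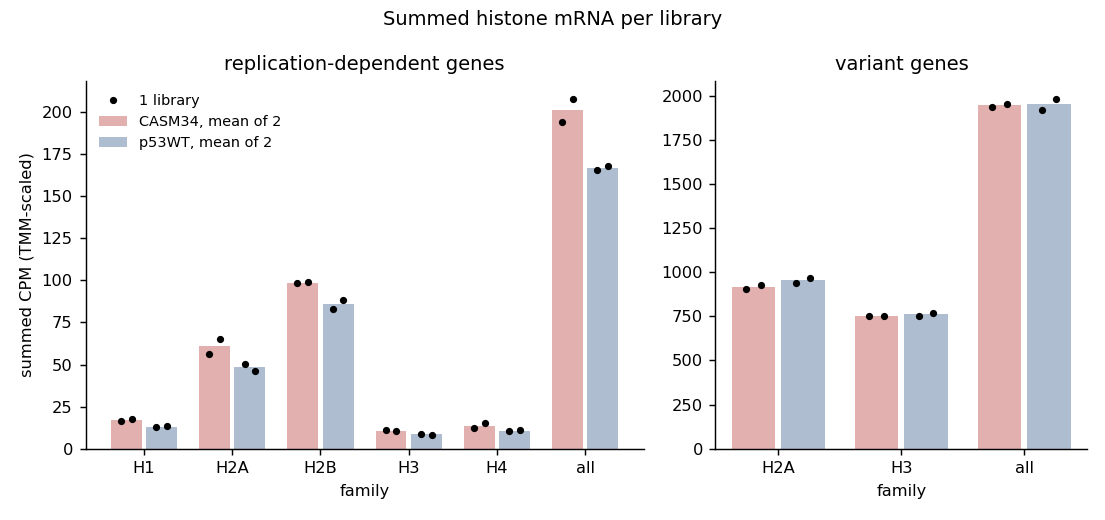
Summed histone mRNA per library, in TMM-scaled CPM, for the replication-dependent families (left) and the variant H2A and H3 families with the total of all variant genes (right); bars are means of 2 libraries and each point is 1 library. In the 5 replication-dependent families both CASM34 points lie above both p53WT points, and the 2 groups overlap for the variant total; the axes of the panels differ in scale.

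Of the 70 replication-dependent genes, 12 had no count in any library, and 24, these 12 included, had at most 3 counts in every library. The filter on counts removed 41, which left 29 to test. Among the 41 was H2AC19, with 166 counts in p53WT replicate 2 and 0 in each other library. A count of 0 allows up to 3 counts, or 0.112 to 0.164 CPM depending on the library. None of the 29 rose or fell at an edgeR adjusted p under 0.05, where 1.95% of the 15965 genes tested passed, 1.61% as higher and 0.345% as lower. At an unadjusted p under 0.05 there were 8, where 17.1% of all tested genes passed, and DESeq2 called 0, though it gave an adjusted p for only 1 of them. Their log2 fold changes ran from -0.75 to 1.44 with a median of 0.27, against a median of -0.0005 over all tested genes, and 20 lay above 0, against 49.8% of all tested genes. Both CASM34 libraries were above both p53WT libraries for 13 (24.5% of all tested genes) and below them for 4 (23.4% of all tested genes; 47.9% in either direction). Of the 29, 24 passed the count minimum in all 4 libraries, and 1, H1-5, passed it in the CASM34 libraries alone. Over the 58 members with any count, of which 29 were not tested, 20 had both CASM34 libraries above, 6 had both below and 32 overlapped. The shares over all genes with any count were not taken, so these counts have no background to be set against.

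The class rested on few genes. A single gene, H2BC12, held 30.03% of the 16904 replication-dependent counts, the top 5 held 62.6% and the top 14 held 88.3%. Without H2BC12 the summed level was 134 and 149 CPM in CASM34 cells, against 118 and 115 CPM in p53WT cells, a log2 difference of 0.28. By family, H2B genes gave 50.7% and 47.6% of the replication-dependent CPM in CASM34 cells, against 50.3% and 52.7% in p53WT cells, and H3 and H4 genes gave the least. These are shares of poly(A)-selected RNA and no measure of histone protein.

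**Figure D2:**
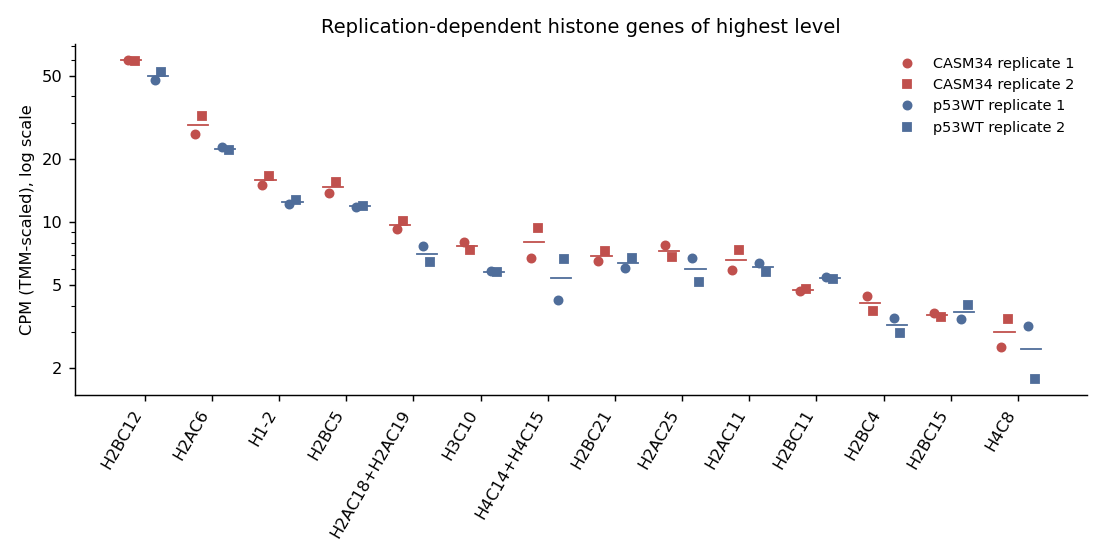
Level of the most abundant replication-dependent histone genes in each library, in TMM-scaled CPM on a log axis; each point is 1 library, CASM34 left of p53WT for every gene, and lines are group means. Near-identical copies are added up (H2AC18 with H2AC19, H4C14 with H4C15); H2BC12 stands highest at 59.8 and 59.3 CPM in CASM34 cells, and among the genes drawn H2BC11 is lower in both CASM34 libraries.

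Of the linker histone genes of the class, H1-2 was the only abundant one and held 94.4% of the H1 CPM. H1-2 (chr6:26055787-26056428, minus strand) was at 15.0 and 16.7 CPM in CASM34 cells, against 12.2 and 12.7 CPM in p53WT cells. The groups did not overlap, and the log2 fold change of 0.34 (SE 0.10) had an edgeR adjusted p of 0.115. H1-5 was near the detection limit, at 0.599 and 0.493 CPM in CASM34 cells, against 0.230 and 0.271 CPM in p53WT cells, and H1-1 and H1-6 had no count.

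Among the H2A genes, H2AC6 led. H2AC6 (chr6:26124145-26139116, plus strand) was at 26.4 and 32.1 CPM in CASM34 cells, against 23.01 and 22.1 CPM in p53WT cells. Its CASM34 libraries were both higher, replicate 2 the more so, and the log2 fold change of 0.37 (SE 0.09) had an adjusted p of 0.067 in edgeR. With an offset for the trend of each library on transcript GC content and length, H2AC6 stood at a log2 fold change of 0.46. It passed at an edgeR adjusted p of 0.044, where 0.163% of all tested genes rose under that offset. Over the alternatives of H2AC6 the adjusted p reached 0.338. The GC content taken for H2AC6, 41.9%, came from GENCODE 29 transcripts of 1462 to 1668 bases. The deposited lengths, 801 to 976 bases, were shorter, so that GC content may not be that of the counted model.

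All 50-base words of H2AC18 are also in the slightly longer H2AC19, so most of their reads cannot be told apart. In p53WT replicate 2 the authors' estimates put all of them on H2AC19 and none on H2AC18. The fitted log2 fold change of H2AC18, 1.40 (SE 0.71), is thus larger than that of the copies together. Added up, the copies were at 9.32 and 10.1 CPM in CASM34 cells, against 7.73 and 6.43 CPM in p53WT cells, and the log2 fold change was 0.46 (SE 0.14) with an edgeR adjusted p of 0.109. H2AC8 had the largest fold change among the H2A genes past the minimum in all libraries, at 1.76 and 2.30 CPM in CASM34 cells, against 0.967 and 1.32 CPM in p53WT cells. That log2 fold change of 0.80 (SE 0.31) had an edgeR adjusted p of 0.204, and H2AC8 was picked out after its values were seen. H2AC25 was also higher in both CASM34 libraries (log2 fold change 0.31), while H2AC11, at 0.11, overlapped.

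Among the H2B genes, H2BC12 had by far the highest level of the class. H2BC12 (chr6:27146418-27146798, minus strand) was at 59.8 and 59.3 CPM in CASM34 cells, against 47.8 and 52.6 CPM in p53WT cells. The groups did not overlap, and the log2 fold change of 0.25 (SE 0.06) missed the threshold at an edgeR adjusted p of 0.057. It passed in 5 of 17 alternatives, among them the stricter filter of a mean CPM of at least 1 (adjusted p = 0.044), with adjusted p over the alternatives from 0.0023 to 0.340. Per length, H2BC12 reached 364 and 365 TPM in CASM34 cells, against 299.9 and 316.6 TPM in p53WT cells, which is in the range of the variant genes. It shares 61.4% of its 50-base words with H2BC12L, which had 1 count in all, so reads could be shared between them.

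H2BC5 was at 13.9 and 15.7 CPM in CASM34 cells, against 11.9 and 11.999 CPM in p53WT cells (log2 fold change 0.30, SE 0.11, edgeR adjusted p = 0.173). The direction was not shared by every H2B gene. H2BC11 was lower in both CASM34 libraries, at 4.68 and 4.82 CPM in CASM34 cells, against 5.48 and 5.34 CPM in p53WT cells (log2 fold change -0.19, SE 0.16), and so was H2BC9 (log2 fold change -0.56, SE 0.26). H2BC4 stood at 0.37, and H2BC21 (0.10) and H2BC15 (-0.06) overlapped; none of these passed.

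H3 and H4 genes were the weakest represented of the core families. H3C10 held 69.4% of the H3 CPM and was at 8.01 and 7.40 CPM in CASM34 cells, against 5.85 and 5.77 CPM in p53WT cells. The groups did not overlap, and the log2 fold change was 0.41 (SE 0.14, edgeR adjusted p = 0.153). Of 13 H3 genes of the class, 4 had no count and 3 were tested. For H4, the near-identical H4C14 and H4C15 together reached 6.74 and 9.37 CPM in CASM34 cells, against 4.23 and 6.66 CPM in p53WT cells, so that the lower CASM34 library lay just above the higher p53WT library (log2 fold change 0.53, SE 0.21, edgeR adjusted p = 0.207). H4C11 and H4C12, of which H4C11 holds all 50-base words of the shorter H4C12, went the other way when added up, at 1.31 and 1.64 CPM in CASM34 cells, against 2.35 and 2.09 CPM in p53WT cells (log2 fold change -0.60, SE 0.27, edgeR adjusted p = 0.284). H4C8 was at 2.55 and 3.45 CPM in CASM34 cells, against 3.18 and 1.78 CPM in p53WT cells, and overlapped.

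The log2 differences of the family sums were 0.37 for H1, 0.33 for H2A, 0.20 for H2B, 0.32 for H3 and 0.35 for H4, and in each both CASM34 libraries lay above both p53WT libraries; the families were not tested against each other. By position, the 55 genes of the large chromosome 6 cluster summed to 161 and 171 CPM in CASM34 cells, against 138 and 140 CPM in p53WT cells. The 11 genes of the larger chromosome 1 cluster summed to 24.2 and 29.3 CPM in CASM34 cells, against 19.98 and 21.9 CPM in p53WT cells. The log2 differences, 0.25 on chromosome 6 and 0.35 on chromosome 1, were not tested against each other.

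**Figure D3:**
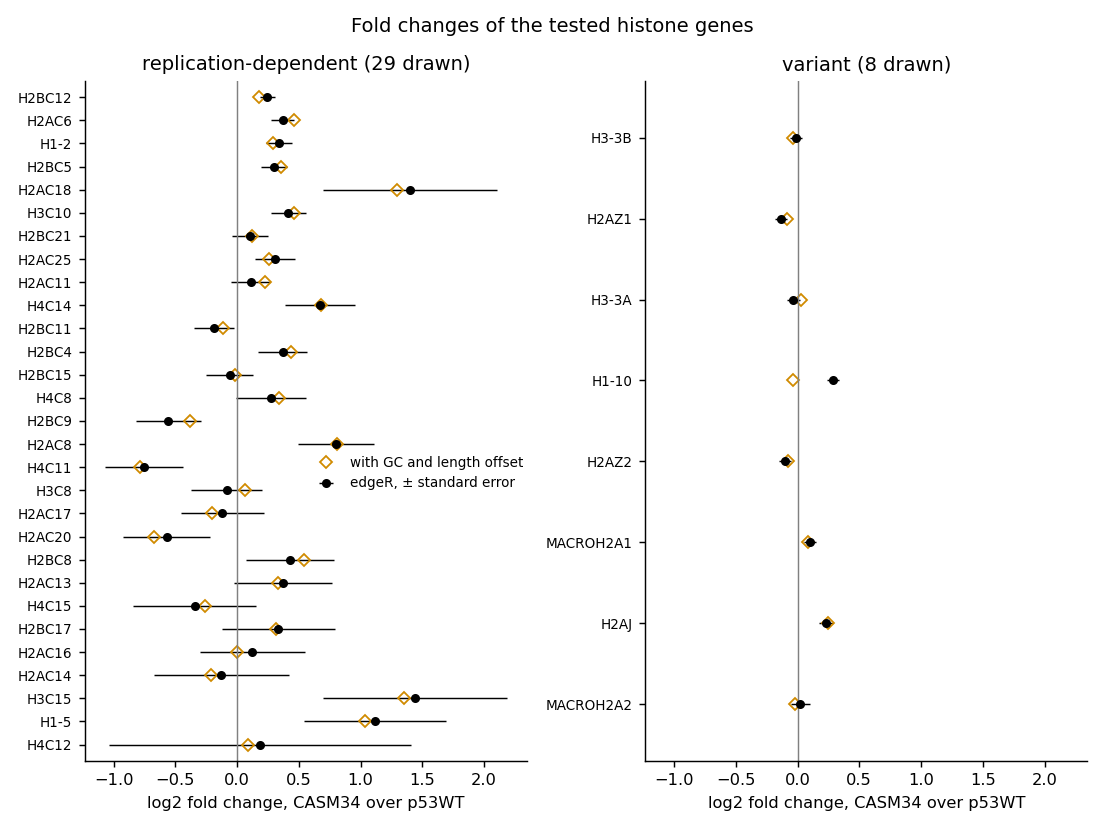
Log2 fold change of CASM34 over p53WT for the 29 tested replication-dependent genes (left) and 8 of the 9 tested variant genes (right), ordered by mean CPM; filled circles with bars are edgeR estimates with their standard error and open diamonds are estimates with the GC and length offset. Most replication-dependent estimates lie right of 0 with wide errors, and H1-10 has the widest gap between its 2 estimates among the variant genes drawn, -0.04 with the offset against 0.29 without it.

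Which members were seen at all differed with the deposited gene models. In the deposited models, 16 replication-dependent genes had several transcripts, and these held 41.0% of the counts with a median of 293 counts over the 4 libraries and 0 without a count. The 54 genes with a single transcript had a median of 16.5 counts and 12 without a count, though H2BC12 is among them. For the genes with several transcripts a level is thus that of all the deposited transcripts and not of the stem-loop mRNA alone. The single-transcript models were short, with a median length of 493.5 bases, and held 59.0% of the counts.

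Many H2A and H2B genes start back to back, and 12 pairs of members on opposite strands, 11 of them an H2A with an H2B gene and 1 an H2B with an H3 gene, had annotated starts within 1000 bases of each other. In the pair with an H3 gene, H3C12 with H2BC17, the annotated H3C12 start lies within H2AC17, which itself pairs with H2BC17. That pair is thus not separate from the pair of H2AC17 and H2BC17. Levels within a pair could lie far apart. H2BC12 had 5077 counts over the 4 libraries (336 TPM on average), while H2AC12, whose start is 331 bases away on the other strand, had 7 (0.585 TPM). H2AC6 had 2362 counts (51.7 TPM) and its neighbour H2BC4, 219 bases away, had 340 (16.5 TPM). In other pairs the levels were close, as for H2BC11 with 28.0 TPM and H2AC11 with 39.5 TPM, 292 bases apart.

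The windows upstream of H2BC12 and H2AC6 are shown because each stands between such a pair, and that of H1-10 because it is the member that passed the test. They span 250 bases before to 50 after the start in RefSeq, on GRCh38.p14, and read 5' to 3' on the gene's strand. They lie at chr6:27146809-27147108 (-) for H2BC12, chr6:26123922-26124221 (+) for H2AC6 and chr3:129316237-129316536 (-) for H1-10. Capitals mark 3 letter patterns on either strand, the CCAAT box (CCAAT), the TATA box (TATAAA) and the octamer (ATTTGCAT) to which POU2F1 (OCT-1) binds in H2B promoters; where matches overlap, the capitals run together.
H2BC12: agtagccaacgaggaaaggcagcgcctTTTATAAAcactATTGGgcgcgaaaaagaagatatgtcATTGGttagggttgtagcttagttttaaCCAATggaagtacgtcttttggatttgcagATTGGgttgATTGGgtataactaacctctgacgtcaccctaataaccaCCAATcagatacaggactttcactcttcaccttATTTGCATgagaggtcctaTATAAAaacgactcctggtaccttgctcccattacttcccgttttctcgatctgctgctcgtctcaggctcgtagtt
H2AC6: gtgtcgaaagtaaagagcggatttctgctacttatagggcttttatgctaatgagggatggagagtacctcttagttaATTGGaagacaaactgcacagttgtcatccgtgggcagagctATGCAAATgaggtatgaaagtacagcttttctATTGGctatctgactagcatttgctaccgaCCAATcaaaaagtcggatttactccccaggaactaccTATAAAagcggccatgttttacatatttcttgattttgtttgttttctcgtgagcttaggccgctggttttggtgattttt
H1-10: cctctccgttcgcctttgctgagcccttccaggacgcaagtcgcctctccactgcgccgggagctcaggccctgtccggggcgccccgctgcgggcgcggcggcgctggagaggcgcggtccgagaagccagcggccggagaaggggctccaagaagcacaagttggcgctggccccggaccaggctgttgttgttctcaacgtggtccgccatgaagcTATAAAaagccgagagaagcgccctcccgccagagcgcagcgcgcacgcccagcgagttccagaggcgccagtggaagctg
Both replication-dependent windows held all 3 patterns, and the H1-10 window held TATAAA alone. The table gave 63 different windows for 64 of the 70 replication-dependent genes, H3C4 having that of H2AC7, and windows for 10 of the 11 variant genes. CCAAT occurred in 53 of the 63 and in 7 of the 10, against 34.6% of all 34943 different windows of the same length, and TATAAA in 42 of the 63 and 3 of the 10, against 11.6%. ATTTGCAT occurred in 25 of the 63, among them 14 of 18 H2B and 11 of 16 H2A windows, against 1.77% of all windows, and in 1 of the 10 variant windows. Windows of back-to-back genes can overlap, and both strands were searched, so the same letters can count for both genes of a pair. The octamer in the H2AC6 window, for example, is also the octamer in the H2BC4 window. The H2A and H2B counts are therefore not independent. A match is a run of letters and not a shown binding site.

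Variant histone genes were abundant, and 1 of the 9 tested, H1-10, rose in CASM34 cells while 0 fell. H1-7 and H1-8, the testis and oocyte linker histones, had no count. At an unadjusted p under 0.05 there were 5, and DESeq2 called 2 (H1-10, and H2AZ1 as lower). These shares stand against 1.95% of all tested genes called and 17.1% at that unadjusted p. The median log2 fold change was -0.01, with 4 above and 5 below 0. Both CASM34 libraries were above both p53WT libraries for 3 genes (24.5% of all tested genes) and below for 3 (23.4%), and the groups overlapped for 3.

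**Figure D4:**
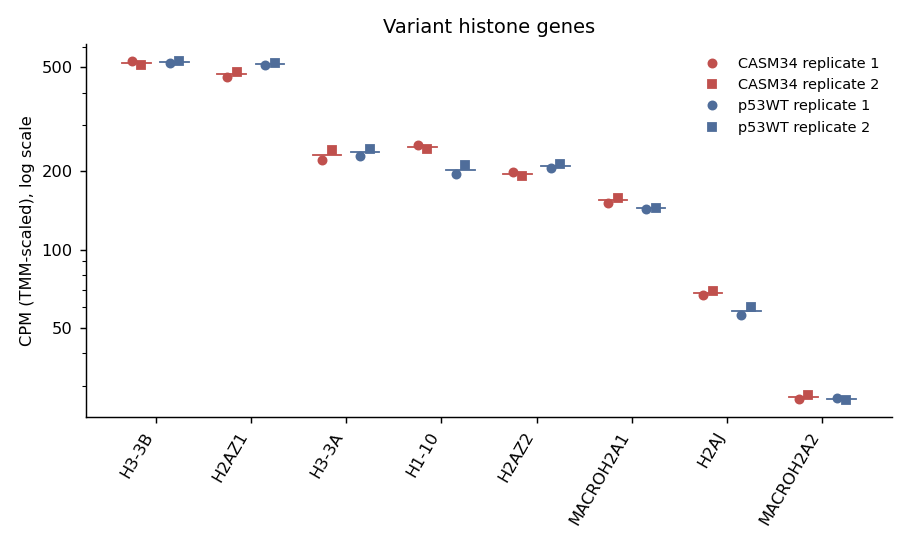
Level of 8 variant histone genes in each library, in TMM-scaled CPM on a log axis; each point is 1 library, CASM34 left of p53WT for every gene, and lines are group means. H1-10, H2AJ and MACROH2A1 lie higher in both CASM34 libraries, and H2AZ1 and H2AZ2 lower in both.

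H1-10 (H1X, a linker histone expressed independently of replication, chr3:129314771-129316277, minus strand) was at 252 and 243 CPM in CASM34 cells, against 195 and 211 CPM in p53WT cells. The groups did not overlap, and the log2 fold change of 0.29 (SE 0.05) had an edgeR adjusted p of 0.014. It passed in 12 of 17 alternatives, with adjusted p from 1.7e-07 to 0.934, and not without p53WT replicate 1, where the log2 fold change was 0.23. The gene's transcripts have a GC content of 68.6%, against a median of 56.2% for the tested replication-dependent genes and 50.1% for all tested genes. With the GC and length offset its log2 fold change was -0.04. The libraries differed in this respect by group, in the slope on GC of a library's deviation from each gene's mean log2 level over the 4 libraries. Per 10 percentage points of GC this slope was 0.0737 and 0.0424 in the CASM34 libraries, against -0.0585 and -0.0575 in the p53WT libraries. The offset left the replication-dependent sum at a log2 difference of 0.26 and the median of the 29 tested genes at 0.26. For some of these genes the GENCODE 29 transcript that gave the GC content differs in length from the deposited model. H2AC11 had 2250 against 493 bases, H2BC9 2060 against 462 bases and H2BC12 381 against 495 bases. The median of 56.2% and the offset rest on such values, and the GC content of the deposited models was not tested.

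H2AZ1 and H2AZ2 encode H2A.Z, the variant placed at promoters by the SRCAP and EP400 complexes. H2AZ1 was at 460 and 481 CPM in CASM34 cells, against 510 and 522 CPM in p53WT cells. Both CASM34 libraries were lower, at a log2 fold change of -0.13 (SE 0.05) that did not pass in edgeR (adjusted p = 0.155) and passed in DESeq2 (adjusted p = 0.033), with adjusted p over all alternatives from 0.033 to 0.467. H2AZ2 was at 198 and 192 CPM in CASM34 cells, against 205 and 213 CPM in p53WT cells (log2 fold change -0.10, SE 0.05, edgeR adjusted p = 0.278), again lower in both.

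H2AJ, a variant close to canonical H2A that accumulates in senescent cells, was at 67.1 and 69.3 CPM in CASM34 cells, against 55.9 and 60.3 CPM in p53WT cells. Both CASM34 libraries were higher, and the log2 fold change of 0.23 (SE 0.06) had an edgeR adjusted p of 0.059. It passed in 5 of 17 alternatives (adjusted p from 0.0034 to 0.323), and with the GC and length offset it stood at 0.24. With the form of that offset that prefers transcripts of the same version, H2AJ stood at 0.29 and passed (edgeR adjusted p = 0.027). MACROH2A1 and MACROH2A2 encode H2A variants with a large macrodomain that mark silent chromatin. MACROH2A1 was at 151 and 158 CPM in CASM34 cells, against 143 and 145 CPM in p53WT cells (log2 fold change 0.10, SE 0.05, edgeR adjusted p = 0.277). MACROH2A2 was at 26.6 and 27.7 CPM in CASM34 cells, against 26.9 and 26.4 CPM in p53WT cells, and overlapped.

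H3-3A and H3-3B encode the same protein, H3.3, which HIRA and the DAXX-ATRX pair deposit outside replication. H3-3B was at 529.5 and 511 CPM in CASM34 cells, against 522 and 529 CPM in p53WT cells, and H3-3A at 221 and 239.96 CPM in CASM34 cells, against 229.5 and 242 CPM in p53WT cells. Both overlapped, with log2 fold changes of -0.01 (SE 0.05) and -0.03 (SE 0.05). Per length, H3-3B averaged 1076 ± 77.2 TPM in CASM34 cells and 985 ± 35.1 TPM in p53WT cells, and H2AZ1 979 ± 36.0 TPM in CASM34 cells and 1080 ± 1.47 TPM in p53WT cells (SD, n = 2 each), so the order of these top 2 differed between the groups, and in CASM34 cells their means differed by little more than the SD of H3-3B. By CPM H3-3B stood above H2AZ1 in every library, so the order by TPM rests in part on estimated lengths. The effective length of H3-3B was 553 and 593 bases in CASM34 cells, against 652 and 618 bases in p53WT cells. Per length, H3-3A followed at 357 ± 20.2 TPM in CASM34 cells and 367 ± 8.03 TPM in p53WT cells. In CASM34 cells H2AJ (243 ± 5.16 TPM) and H1-10 (241 ± 5.84 TPM) came next and did not differ beyond their spread, then H2AZ2 (216 ± 1.56 TPM) and MACROH2A1 (135 ± 7.51 TPM). MACROH2A2 (20.3 ± 0.09 TPM) lay far below these. In p53WT cells H2AZ2 (228 ± 12.1 TPM) stood before H2AJ (206 ± 4.89 TPM) and H1-10 (198 ± 8.34 TPM), with H1-10 and H2AJ again within their spread.

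The genes that make, process and carry histones were described from lists, and no member of these lists rose or fell in edgeR without an offset. At an unadjusted p under 0.05 there were 5 of 18 genes of 3' end processing, 4 of 10 of histone gene transcription, 7 of 16 chaperones of replication-dependent histones, 2 of 15 of variant histones and 9 of 20 S phase genes, where 17.1% of all tested genes did; DESeq2 called 0, 0, 2, 1 and 2 of these lists' genes. With the GC and length offset edgeR called 1, the chaperone MCM2 as lower, at a log2 fold change of -0.21 (adjusted p = 0.042), against -0.09 (adjusted p = 0.344) without the offset. Of the 18 genes of 3' end processing and decay, 12 lay below 0 with a median log2 fold change of -0.07. CPSF3, the endonuclease of the histone cleavage complex, was at 80.9 and 76.7 CPM in CASM34 cells, against 88.9 and 90.1 CPM in p53WT cells (log2 fold change -0.18, edgeR adjusted p = 0.084). SLBP was at 173 and 171 CPM in CASM34 cells, against 179 and 184 CPM in p53WT cells (log2 fold change -0.08, edgeR adjusted p = 0.421). Both were lower in both CASM34 libraries. CPSF2, CASP8AP2 and ERI1, the exonuclease that trims histone mRNA ends, lay at -0.13, -0.17 and -0.15 on the log2 scale.

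Of 10 genes of histone gene transcription, 7 lay below 0, with a median of -0.06. NPAT, the coactivator of histone clusters, was at 19.1 and 19.7 CPM in CASM34 cells, against 22.0 and 21.4 CPM in p53WT cells (log2 fold change -0.16, edgeR adjusted p = 0.360), and HINFP, which acts at H4 promoters, lay at -0.26 (edgeR adjusted p = 0.159). CDK2, whose complex with cyclin E activates NPAT, lay at -0.11, and E2F1 at 0.11. The 20 S phase genes, which include SLBP, had 19 below 0 and a median of -0.11, the opposite sign to the replication-dependent sum; the closest to the threshold were POLE2 at -0.37 (edgeR adjusted p = 0.064) and RRM2 at -0.18 (edgeR adjusted p = 0.070). RRM2, a subunit of ribonucleotide reductase, was at 392 and 370 CPM in CASM34 cells, against 434 and 430 CPM in p53WT cells.

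Of 16 chaperones of replication-dependent histones, 12 lay below 0 with a median of -0.10, led by RBBP4 at -0.17 and MMS22L at -0.20. Of 15 chaperones and exchangers of variant histones, 8 lay below 0 with a median of -0.003; DEK lay at -0.18 (edgeR adjusted p = 0.068) and ANP32E, which removes H2A.Z, at -0.14. Among histone genes outside the rule, 4 of 14 with a row were tested. H2AX, the variant phosphorylated at DNA breaks, was at 358 and 349 CPM in CASM34 cells, against 314 and 330 CPM in p53WT cells (log2 fold change 0.13, edgeR adjusted p = 0.169), and CENPA, the centromeric H3, at 46.4 and 51.9 CPM in CASM34 cells, against 52.6 and 58.9 CPM in p53WT cells (log2 fold change -0.19, edgeR adjusted p = 0.186). H2AB2 and H2AB3 were the other pair tested and did not pass.

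RNAs without a poly(A) tail bear on how strictly each library selected poly(A). Of 17 such RNAs, 9 had no count and 3 were tested. None passed, all 3 lay above 0 at log2 fold changes of 0.58 to 0.78 (median 0.58), and 2 had an unadjusted p under 0.05, where 17.1% of all tested genes did. They summed to 54.7 and 28.4 CPM in the CASM34 libraries, against 30.1 and 26.6 CPM in the p53WT libraries; the groups overlapped, and CASM34 replicate 1 stood high. RN7SL2 was at 29.4 and 15.6 CPM in CASM34 cells, against 15.3 and 15.4 CPM in p53WT cells. Their part in the histone result was not tested.

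The libraries held 26906095 and 18086983 estimated counts in CASM34 cells, against 21717726 and 25969760 in p53WT cells. Mitochondrially encoded mRNAs summed to 17264 and 13548 CPM in CASM34 cells, against 13544 and 10354 CPM in p53WT cells, and 2 of 13 rose (MT-ND2 and MT-ND6), where 1.61% of all tested genes did. The 13 log2 fold changes were positive (median 0.35), and 11 had an unadjusted p under 0.05; their part in the histone result was not tested. As a check of the labelled cell type, KRT8 and KRT18, keratins of epithelial lines, were at 556 and 537 CPM (KRT8) and 1035 and 1025 CPM (KRT18) in CASM34 cells, against 501 and 513 CPM (KRT8) and 1011 and 1031 CPM (KRT18) in p53WT cells, while 8 of the 12 epithelial markers, EPCAM and CDH1 among them, were too low to test. Of the 8 leukocyte markers, 7 were too low to test, and CD68, a lysosomal membrane protein, was at 102 and 89.9 CPM in CASM34 cells, against 97.1 and 96.1 CPM in p53WT cells, and all 8 fibroblast and endothelial markers together gave 3.56 and 4.0002 CPM in CASM34 cells, against 3.36 and 3.56 CPM in p53WT cells. None of these marker genes passed. The labels do not tie the libraries to separate cultures, so p-values speak to the spread among these 4 libraries, and part of it may be technical.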

How the data were processed

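Per the labels' protocols, total RNA was column-purified and poly(A)-selected; reads were handled with STAR, RSEM and Trim Galore on GRCh38, per the submitters' processing notes. Tool versions, strand setting and annotation release: not given in the sources used here. Per the file headers, the authors deposited expected counts (RSEM estimates that divide reads shared by near-identical genes), TPM and effective lengths. Expected counts were rounded and compared with the quasi-likelihood test of edgeR 4.0.16 (R 4.3.3; TMM; filterByExpr, minimum count 10; Benjamini-Hochberg over 15965 genes; threshold 0.05), all 4 libraries, group only. Fold changes are CASM34 over p53WT, and SE is the absolute log2 fold change over the square root of F. The self-test used simulated counts. Sums use all members. Counts within a group differed by more than counting error (chi-square per degree of freedom 3.92 in CASM34 and 3.86 in p53WT), so no library was a duplicate. Floors cover counting error only.

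The members and lists were chosen with earlier results of these data known. Named with values were members past the threshold, the tested variants (1 is not reported here), the 14 highest tested replication-dependent members and up to 4 genes per list by adjusted p, with SLBP, NPAT, H2AX and CENPA; H2AC8, H2BC9, H4C11 and H1-5 were added after their values were seen. Gene coordinates and GC content come from GENCODE 29, an older release than the authors' models: 23 of 81 members have a transcript of the same version. The GC and length offset fits splines (5 degrees of freedom) of each library's deviations on the mean GC of a gene's transcripts, matched without version, and on effective length. A form that prefers transcripts of the same version was tried after its first result had been seen, and both are reported. Other alternatives were 3 scalings, 2 filters, DESeq2 1.42.0, limma 3.58.1 (voom, and log2(TPM + 1)), an effective length offset, a replicate block, each library left out, and, added after seeing the data, copies added up and sums without their highest members. Expression of the introduced p53 was not analysed here.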

Additional observations from a re-analysis of the deposited data

How the results depend on the processing

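The replication-dependent sum kept its sign: its log2 difference was 0.22 to 0.32 without each library in turn and 0.24 with deposited TPM, and the median of the tested genes was 0.20 to 0.29 without each library. For all genes, against 312, there were 53 calls with the GC and length offset, 102 with its same-version form, 777 with every gene of at least 1 count, 3 with the effective length offset, 0 with limma on log2(TPM + 1) (1820 at an unadjusted p under 0.05), 57 at an adjusted p under 0.01 and 109 to 919 without each library. For replication-dependent genes, against 0, there was 1 with either GC offset (H2AC6), 5 with every gene of at least 1 count, 1 with a mean CPM of at least 1 (H2BC12) and 2 to 5 without each library, among them the copies H2AC18 and H2AC19. For variant genes, against 1, there were 2 with DESeq2, with every gene of at least 1 count and with a mean CPM of at least 1, 0 with the GC and length offset, with the effective length offset and with limma on log2(TPM + 1) (at an unadjusted p under 0.05 these had 3, 4 and 4), 0 at an adjusted p under 0.01, and 0 to 2 without each library.

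The variant sum was at 0.027 with deposited TPM, and the variant median was -0.028 to 0.023 without each library. With the same-version form of the GC and length offset, H2AJ alone of the variant genes passed (edgeR adjusted p = 0.027). Signs turned with the GC and length offset and its same-version form for H1-10 (-0.036 and -0.015), H3-3A (0.026 and 0.020) and MACROH2A2 (-0.023 and -0.038). H2BC15 turned to 0.0048 with the same-version form, 0.070 with the effective length offset and 0.029 with limma on log2(TPM + 1), and H3-3B to 0.12 and 0.13 with the last 2 of these. Without each library in turn, values that crossed 0 ran from -0.042 to 0.27 (H2AC11), -0.17 to 0.060 (H2BC15), -0.10 to 0.73 (H4C8), -0.094 to 0.023 (H3-3A), -0.040 to 0.011 (H3-3B) and -0.0052 to 0.055 (MACROH2A2). The causes were not tested. The labels do not say that replicate numbers pair the libraries, and same-numbered libraries had a correlation of deviations of 0.034; with a replicate block 1159 genes passed, 5 of them replication-dependent and 3 variant. Of the 70 replication-dependent members, 41 did not pass the filter on counts and were not tested.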
